A study of Mus musculus with 12 samples.

Results

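The genes of this report make, bind, sense and remove retinoic acid in C18-4 cells. They are Aldh1a1, Aldh1a2, Dhrs3 and Cyp26b1 for synthesis and turnover, Crabp1 and Crabp2 for cytosolic binding, and Rara, Rarb and Rarg for the nuclear receptors. They were chosen by their symbols, 9 genes among the 17576 of the deposited table. Of the 9, 8 have a row, and Crabp1 was not analysed here. The remaining rows were filtered on low values, and 5 genes (Aldh1a1, Dhrs3, Crabp2, Rara and Rarg) reached 1 RPKM (reads per gene, scaled by gene length and by the mapped reads of the library) in at least 3 of 12 libraries and entered the tests. Cyp26b1, Rarb and Aldh1a2 stayed below this limit in all 12 libraries.

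C18-4 is an immortalised line used as a model of mouse spermatogonial stem cells, and the RNA of 12 libraries in 4 groups of 3 was measured. Cells with the lentiviral vector LV3 and a control shRNA are named 3NC, and those with LV3 and shRNAs against lncRNA5251 are KD (C18_5251KD in the labels). Cells with the empty vector LV5 are named 5NC, and those with LV5 and full-length lncRNA5251 are OV (C18_5251OV in the labels). All 4 groups are thus stably transfected cells of 1 line that carry a lentiviral vector, and the shRNAs of KD were used as a mixture. The labels give the strain as IRC mouse and do not say whether the 3 libraries of a group came from separate cultures, so p-values measure the spread between libraries, which may be technical. The knockdown was compared with 3NC and the overexpression with 5NC, and the control vectors were compared with each other because KD and OV do not share a control.

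RPKM keeps no read numbers. The smallest steps of 162 low genes, taken as 1 read, put the relative depth of single libraries between 0.938 and 1.022. Spearman's correlation across genes within groups was 0.9875 to 0.9900, and no pair of libraries held the same values. LncRNA5251 has no row of its own, so its level in KD and OV could not be read from these values. The 3 knockdown sequences each match 1 gene among the GENCODE transcripts, Purb, which was at 8.79 to 10.25 RPKM in KD and 23.94 to 33.25 in OV, against 32.92 to 34.11 in 3NC and 29.18 to 32.09 in 5NC. No knockdown sequence matched a retinoic acid gene. Whether the lower Purb in KD had a part in the results for KD was not tested. The labelled cell type was checked against its markers. Of 14 spermatogonial and germ cell markers with a row, 10 stayed below 0.5 RPKM in every library, among them Ddx4, Dazl, Zbtb16, Ret, Nanos2 and Gfra1. The 3 that were tested (Uchl1, Etv5 and Id4) all fell in KD against 3NC, where 23.5% of all genes tested fell. The summed RPKM of this list was 83.19 to 91.63 for 3NC and 64.49 to 72.76 for KD, and 94.1 to 98.03 for 5NC and 110.36 to 127.65 for OV, most of it from Uchl1 (60.06 to 122.73 RPKM over all libraries). Of 10 peritubular and fibroblast markers, 8 were tested, and the summed RPKM of the list was 375.62 to 389.08 for 3NC and 499.86 to 591.59 for KD, and 689.16 to 697.21 for 5NC and 680.98 to 724.9 for OV. Col1a1 (249.15 to 436.81 RPKM over all libraries) held most of that sum. The Sertoli list summed to 61.36 to 70.24 RPKM, mostly Wt1. In bulk RNA, a change in the share of cells that express a gene and a change in RNA per cell cannot be told apart.

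Retinoic acid is the active form of vitamin A. Retinol is oxidised to retinal by retinol dehydrogenases and retinal to retinoic acid by the ALDH1A enzymes, while DHRS3 reduces retinal back to retinol and CYP26 enzymes degrade the acid. In the cytosol CRABP proteins bind it, and in the nucleus it binds the receptors RARα, RARβ and RARγ, which pair with RXR partners on direct repeats of a short core motif. In the testis retinoic acid drives the differentiation of spermatogonia and induces Stra8 on the way to meiosis.

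Aldh1a1 was the most abundant of the 8 genes, and Rarg the most abundant receptor gene. By mean RPKM over 12 libraries the order was Aldh1a1 (77.2), Rarg (28.6), Rara (10.8), Dhrs3 (6.16), Crabp2 (0.985), Cyp26b1 (0.225), Rarb (0.0292) and Aldh1a2 (0.0025). Aldh1a1 ranked above 93.1% of the genes of the table and Rarg above 80.9%. In this order the neighbours Cyp26b1 and Rarb, and Rarb and Aldh1a2, overlapped in their ranges over the 12 libraries, and no other neighbours did. Rara and Dhrs3 came closest without overlapping, since the lowest Rara library (KD replicate 3, 8.09 RPKM) was just above the highest Dhrs3 library (5NC replicate 3, 8.06 RPKM). Of the synthesis enzymes and receptors, Aldh1a1, Rara and Rarg were detected at these levels in every library, while Aldh1a2 and Rarb were at or near 0. The plot of RPKM by library shows all of these values.

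**Figure D1:**
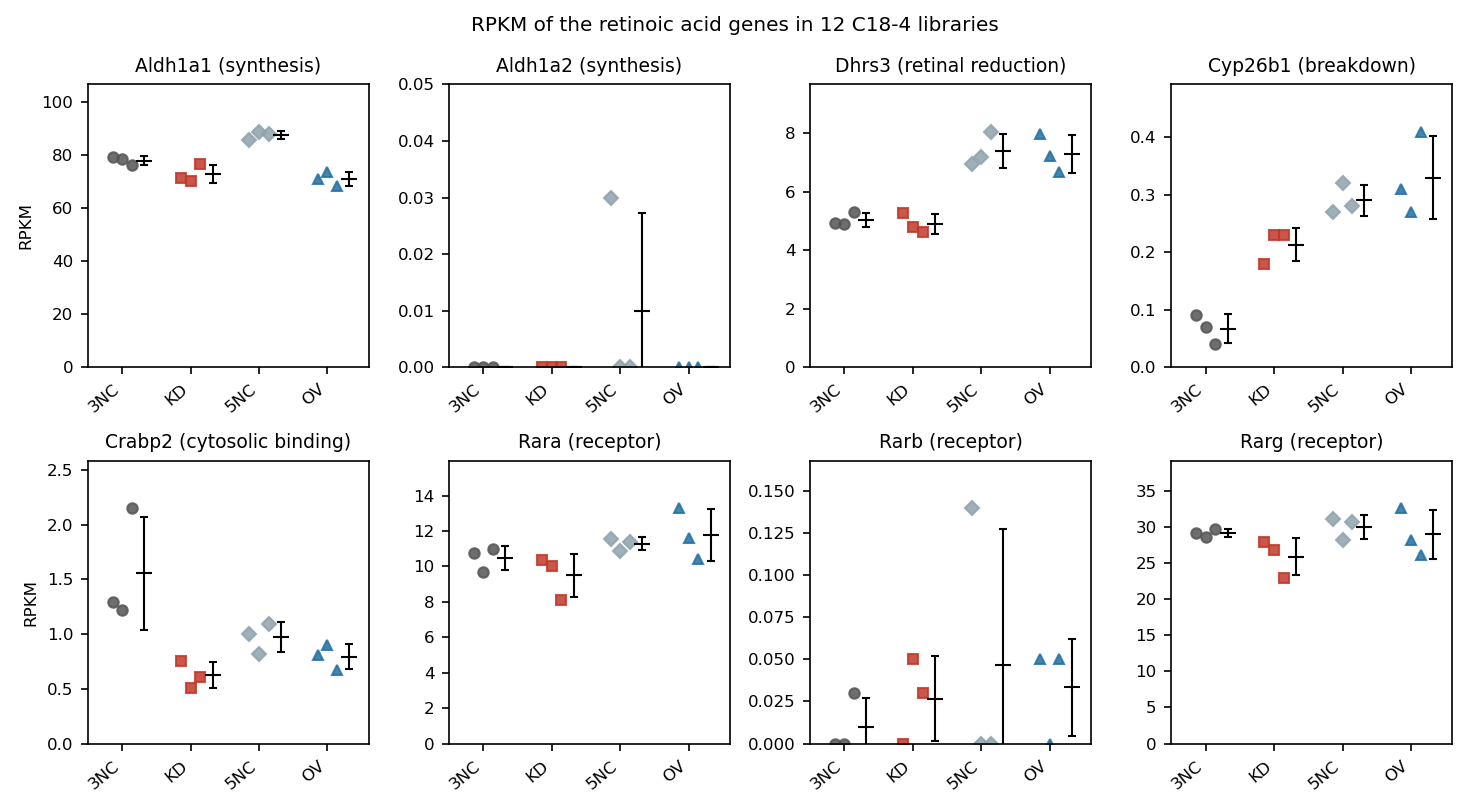
RPKM (y axis, linear, a separate scale for each gene) of the 8 retinoic acid genes with a row, in the groups 3NC, KD, 5NC and OV (x axis). Points are libraries in the order of their replicate number, and the black bar beside them is the mean ± SD of 3 libraries, cut at 0. Crabp2 is lowest in KD (0.51 to 0.75), Dhrs3 is higher in both LV5 groups (6.68 to 8.06) than in both LV3 groups (4.61 to 5.32), and Aldh1a1 is highest in 5NC (85.7 to 88.7).

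Differences between groups are on the log2(RPKM + 1) scale, where the change of a low gene is understated, and were tested with limma over all 11435 genes past the filter, with Benjamini-Hochberg adjustment. A gene was called at an adjusted p of at most 0.05. In KD against 3NC, 1 of the 5 tested genes fell (Crabp2, which reached the filter in no KD library) and 0 rose, beside 23.5% of all genes tested that fell and 31.9% that rose. At an unadjusted p under 0.05, 3 of the 5 were lower (Crabp2, Aldh1a1 and Rarg) and 0 were higher, beside 25.7% and 34.7% of all genes at the same threshold. In OV against 5NC, 1 of the 5 fell (Aldh1a1) and 0 rose, beside 13.9% of all genes that fell and 8.07% that rose. The counts were the same at an unadjusted p under 0.05, beside 23.1% and 14.0% of all genes. Among all genes called in that comparison 36.7% were higher, and this share was 49.7% with quantile normalization and 57.2% with median centring, while Aldh1a1 was called as lower under both. Between the controls, 5NC against 3NC, 2 of the 5 were higher (Dhrs3 and Aldh1a1) and 1 was lower (Crabp2), beside 31.0% and 25.6% of all genes. In KD against 5NC, 4 of the 5 were lower (Dhrs3, Aldh1a1, Rara and Rarg) and 0 were higher, beside 31.4% and 34.0% of all genes. This last comparison shares its libraries with the others and sets an LV3 group against an LV5 group. With so many genes of the table called, a count of 1 of 5 is not a result about these genes. The study's own threshold (adjusted p up to 0.001 together with a log2 difference of 1 or more in size) was passed on the log2(RPKM + 1) scale by none of the 5 in any comparison with limma, beside 1.57% of all genes in KD against 3NC, 0% in OV against 5NC, 2.61% in 5NC against 3NC and 3.55% in KD against 5NC. This count depends on the pseudocount, since with 0.1 in place of 1 Crabp2 passed in KD against 3NC (1 of 5, beside 3.17% of all genes), and it did not pass when the filter was also left out.

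**Figure D2:**
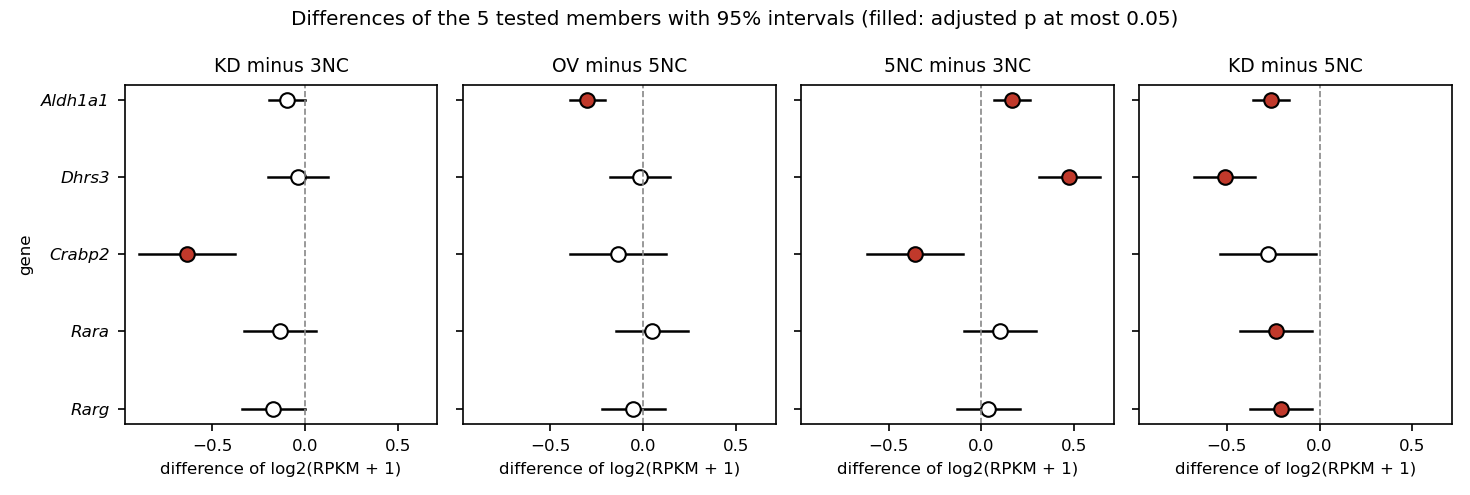
Differences of log2(RPKM + 1) (x axis) of the 5 tested genes (y axis) in 4 comparisons, with 95% intervals from the limma fit to 12 libraries. Filled points have an adjusted p of at most 0.05. Crabp2 in KD against 3NC (-0.64) and Dhrs3 in 5NC against 3NC (0.47) lie farthest from 0 on either side in their panels.

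Aldh1a1 encodes a retinal dehydrogenase that makes retinoic acid, and it fell in OV. Its RPKM was 71.0, 73.4 and 68.1 in the 3 libraries of OV and 85.7, 88.7 and 87.8 in those of 5NC. Every OV library was below every 5NC library. The difference on the log2(RPKM + 1) scale was -0.30 (SE 0.045, limma adjusted p = 0.000968), and the mean in OV was 0.810 of that in 5NC. The exact permutation test of the RPKM gave a two-sided p of 0.1, the smallest that 3 libraries against 3 allow. In the same comparison, of 8 tested peritubular and fibroblast markers 0 rose and 2 fell (Acta2 by -0.60 and Col3a1 by -0.17). Of 3 tested germ cell markers 1 rose (Uchl1 by 0.34) and 0 fell, beside 8.07% of all genes that rose and 13.9% that fell. The part of either list in the result for Aldh1a1 was not tested.

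In KD the RPKM of Aldh1a1 was 71.3, 70.2 and 76.5, and in 3NC it was 79.0, 78.5 and 76.0. The highest KD library lay inside the range of 3NC. The log2 difference was -0.10 (95% interval -0.19 to -0.0014, limma adjusted p = 0.0789), and without KD replicate 3 it was -0.14 (limma adjusted p = 0.0167). With median centring it was -0.12 (limma adjusted p = 0.0427). The difference between the knockdown effect and the overexpression effect was tested in the same fit and was 0.20 (SE 0.064, limma adjusted p = 0.0159), where 31.2% of all genes had a called difference above 0 and 20.7% one below 0. With median centring this difference was 0.14 (limma adjusted p = 0.0949). Aldh1a1 was 0.17 higher in 5NC than in 3NC (limma adjusted p = 0.00593), without overlap between the libraries. The level of Aldh1a1 in OV (mean 70.8 ± 2.67 RPKM, SD, n = 3) was nearer to that of KD (72.7 ± 3.36) and 3NC (77.8 ± 1.64) than to that of its own control 5NC (87.4 ± 1.54).

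The other ALDH1A enzymes gave little signal. Aldh1a2, the retinal dehydrogenase of many embryonic tissues, was listed at 0 in 11 of 12 libraries and at 0.03 RPKM in 5NC replicate 1. Aldh1a3 reached at most 0.24 RPKM. Aldh1a7, a close paralogue of Aldh1a1 whose reads the mapping could have split with it, had mean RPKM of 0.570 for 3NC and 0.757 for KD, and 0.880 for 5NC and 0.520 for OV, against means of 70.8 to 87.4 for Aldh1a1.

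Dhrs3 encodes a retinal reductase that returns retinal to retinol, and it is known as a gene that retinoic acid induces. It was higher in both LV5 groups than in both LV3 groups. The RPKM was 4.93, 4.88 and 5.32 in 3NC and 5.26, 4.80 and 4.61 in KD. In the LV5 groups it was 6.94, 7.20 and 8.06 in 5NC and 7.98, 7.23 and 6.68 in OV. All 6 LV5 libraries were above all 6 LV3 libraries, and within each vector the groups overlapped.

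The log2 difference of Dhrs3 was -0.04 in KD against 3NC (95% interval -0.20 to 0.13) and -0.02 in OV against 5NC (95% interval -0.18 to 0.14), and neither passed the test. It was 0.47 in 5NC against 3NC (SE 0.077, limma adjusted p = 9.22e-05) and -0.51 in KD against 5NC (SE 0.077, limma adjusted p = 3.21e-05). Of the 8 tested peritubular and fibroblast markers, 5 were higher and 2 lower in 5NC than in 3NC, beside 31.0% and 25.6% of all genes, from Dcn (log2 difference 2.32) to Pdgfra (-0.31) and Cnn1 (-0.64), and Tagln differed by 0.02. In KD against 5NC 2 were higher and 3 lower, beside 34.0% and 31.4% of all genes. Their part in the result for Dhrs3 was not tested.

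Cyp26b1 encodes the CYP26 enzyme that breaks down retinoic acid in the embryonic testis. It stayed at or below 0.41 RPKM, below the filter, and did not enter the filtered fit. Its RPKM was 0.09, 0.07 and 0.04 in 3NC and 0.18, 0.23 and 0.23 in KD. It was 0.27, 0.32 and 0.28 in 5NC and 0.31, 0.27 and 0.41 in OV. The 3NC libraries were the lowest of all 12, and the KD libraries lay between 3NC and both LV5 groups.

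The mean of Cyp26b1 in KD was 3.20 times that of 3NC, and the mean in 5NC was 4.35 times that of 3NC. In each case the groups did not overlap and the exact permutation test gave a two-sided p of 0.1, the smallest possible. In a fit to all 17576 genes without the filter, the log2 differences were 0.19 (limma adjusted p = 0.00347) and 0.27 (limma adjusted p = 0.000332). In OV against 5NC the groups overlapped (log2 difference 0.04, limma adjusted p = 0.511 in the same unfiltered fit). The deposited values are rounded to 0.01 RPKM, which is a large part of the 3NC values. Of the 8 tested peritubular and fibroblast markers, 7 were higher and 0 lower in KD than in 3NC, beside 31.9% and 23.5% of all genes. In 5NC against 3NC 5 were higher and 2 lower, beside 31.0% and 25.6% of all genes. Their part in the result for Cyp26b1 was not tested. Cyp26a1 and Cyp26c1, the related enzymes, reached at most 0.14 and 0.05 RPKM.

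Crabp2 encodes the cytosolic protein that carries retinoic acid to the nuclear receptors, and it fell in KD. Its RPKM was 1.29, 1.22 and 2.15 in 3NC and 0.75, 0.51 and 0.61 in KD. Every KD library was below every 3NC library. The log2(RPKM + 1) difference was -0.64 (SE 0.12), with a limma adjusted p of 0.000399 after the filter and of 0.00339 in the fit without a filter, and the mean RPKM in KD was 0.401 of that in 3NC (two-sided p = 0.1 in an exact permutation test, which is as low as it can be). With a pseudocount of 0.1 in place of 1 the log2 difference was -1.16 (limma adjusted p = 0.000361). In the same comparison all 3 tested germ cell markers fell, beside 23.5% of all genes, with log2 differences of -1.40 for Etv5, -0.40 for Id4 and -0.24 for Uchl1. Etv5 was also 1.11 lower in 5NC than in 3NC (log2 difference -1.11). Of the 8 tested peritubular and fibroblast markers, 7 rose and 0 fell in KD against 3NC, beside 31.9% and 23.5% of all genes. The part of either list in the result for Crabp2 was not tested.

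Crabp2 was near the limit of the filter and passed it through 3 libraries of 3NC and 2 of 5NC, so the libraries in which it was high also decided that it was tested. 3NC replicate 3 was far above the others of its group, and without it the difference of KD against 3NC was -0.48 (limma adjusted p = 0.0016). In 5NC the RPKM was 1.0, 0.82 and 1.09, below all 3NC libraries and above all KD libraries. Against 5NC, Crabp2 in KD differed by -0.28 (95% interval -0.54 to -0.02, limma adjusted p = 0.0542), with a limma adjusted p of 0.106 without a filter. With a pseudocount of 0.1 it differed by -0.57 (limma adjusted p = 0.0313, and 0.0636 when the filter was also left out). It was also called with no intensity trend (limma adjusted p = 0.0453), in a fit of only the libraries compared (0.0303), without KD replicate 1 (0.0475) and without 5NC replicate 2 (0.0458). The difference of 5NC against 3NC was -0.36 (SE 0.12, limma adjusted p = 0.0201), but -0.20 without 3NC replicate 3 (limma adjusted p = 0.125) and -0.30 without 5NC replicate 2 (limma adjusted p = 0.0786). This call was also lost without a filter (limma adjusted p = 0.0518) and with a pseudocount of 0.1 without a filter (-0.59, limma adjusted p = 0.0633).

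In OV the RPKM of Crabp2 was 0.81, 0.90 and 0.67, which overlapped with 5NC (log2 difference -0.14, 95% interval -0.39 to 0.12, limma adjusted p = 0.437). The knockdown effect minus the overexpression effect was -0.50 (SE 0.17, limma adjusted p = 0.0231). This test lost its call without 3NC replicate 3 (-0.34, limma adjusted p = 0.0557), without KD replicate 2 (-0.45, limma adjusted p = 0.053), without 5NC replicate 2 (-0.45, limma adjusted p = 0.0581) and without OV replicate 2 (-0.46, limma adjusted p = 0.0549). It was also lost in the fit without a filter (-0.50, limma adjusted p = 0.0592) and with a pseudocount of 0.1 without a filter (-0.90, limma adjusted p = 0.0539). Fabp5, which encodes a fatty acid binding protein that can carry retinoic acid to PPARδ in place of the RARs, was far more abundant than Crabp2. Its mean RPKM was 73.8 ± 0.724 for 3NC and 90.0 ± 4.65 for KD, and 92.4 ± 2.05 for 5NC and 115.8 ± 7.18 for OV (SD, n = 3). Fabp5 rose in KD against 3NC (log2 difference 0.28, limma adjusted p = 0.000233) and in OV against 5NC (0.32, limma adjusted p = 0.0012), and it was also higher in 5NC than in 3NC (0.32, limma adjusted p = 6.84e-05). Against 3NC, Crabp2 thus fell and Fabp5 rose in KD. Ppard, which encodes PPARδ, fell by 0.44 in KD against 3NC (limma adjusted p = 3.68e-05) and was 0.61 lower in 5NC than in 3NC (log2 difference -0.61, limma adjusted p = 1.05e-06). In KD against 5NC the log2 difference was -0.04 for Fabp5 (limma adjusted p = 0.505) and 0.18 for Ppard (limma adjusted p = 0.022).

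Of the genes whose profile over the 12 libraries was most like that of Crabp2, by the root mean square difference of centred log2(RPKM + 1) values among 11434 genes, the nearest 3 were Banp (0.135), Bahd1 (0.137) and E2f4 (0.139). The root mean square distance of Crabp2 from its own mean was 0.272. These genes were chosen for their likeness, so like group means are built in. In 3NC, KD, 5NC and OV the means were 8.03, 4.40, 6.25 and 5.14 RPKM for Banp, and for E2f4 they were 47.1, 31.6, 38.0 and 38.5 RPKM, where OV was not below 5NC as it was for Crabp2.

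The receptors are the transcription factors of the pathway, and Rarg and Rara were the forms found in these cells. The RPKM of Rarg was 29.2, 28.7 and 29.8 in 3NC and 27.9, 26.9 and 23.0 in KD. In 5NC it was 31.2, 28.2 and 30.8, and in OV it was 32.7, 28.2 and 26.1. All KD libraries were below all 3NC libraries and all 5NC libraries, by a small amount, and OV covered the range of 5NC. The log2 difference was -0.17 in KD against 3NC (95% interval -0.34 to -0.002, limma adjusted p = 0.0796) and did not pass, except without KD replicate 1 (-0.22, limma adjusted p = 0.0442) or with quantile normalization (-0.19, limma adjusted p = 0.0432). Without KD replicate 3 it was -0.09 (limma adjusted p = 0.337). It was -0.21 in KD against 5NC (limma adjusted p = 0.0307).

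The RPKM of Rara was 10.8, 9.71 and 10.97 in 3NC, 10.4, 10.02 and 8.09 in KD, 11.6, 10.9 and 11.4 in 5NC and 13.3, 11.6 and 10.4 in OV. Of the 4 comparisons, only that of KD with 5NC had groups that did not overlap. The log2 difference was -0.14 in KD against 3NC (95% interval -0.33 to 0.06), 0.05 in OV against 5NC (95% interval -0.15 to 0.24) and -0.23 in KD against 5NC (limma adjusted p = 0.0346). The lowest library of KD was replicate 3 for Rara as for Rarg. Without it Rara differed by -0.04 from 3NC (limma adjusted p = 0.743), and against 5NC Rara differed by -0.13 (limma adjusted p = 0.183) and Rarg by -0.13 (limma adjusted p = 0.158). Without 5NC replicate 1 or 3 neither receptor was called (limma adjusted p from 0.0791 to 0.097). Both calls were also lost without a filter (limma adjusted p = 0.0884 for Rara and 0.0839 for Rarg) and with a pseudocount of 0.1 without a filter (0.0901 and 0.0873), and that of Rarg with quantile normalization (0.0552).

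Rarb, a receptor gene that retinoic acid itself induces, was listed at 0 in 6 of 12 libraries. The highest value was 0.14 RPKM in 5NC replicate 1, and the others reached at most 0.05. Groups overlapped in each comparison, and the unfiltered fit gave limma adjusted p-values of 0.48 to 0.914. Of the receptor partners, Rxrb and Rxra had means of 15.1 to 21.4 and 6.45 to 7.76 RPKM, and Rxrg was not analysed here. Rxrb was higher in 5NC than in 3NC (log2 difference 0.48, limma adjusted p = 0.000193), as Dhrs3 was, and did not pass in KD against 3NC (0.20, limma adjusted p = 0.0591) or in OV against 5NC (-0.02, limma adjusted p = 0.884).

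The binding motif of these receptors was searched in the RefSeq promoter windows (GRCm38.p6, 250 bases before to 50 after the start of a gene), because Rarb and Cyp26a1 are textbook targets and were both near 0 here. The core motif was taken as AGGTCA, with AGTTCA as a first variant, GGGTCA as another and GGTTCA as the last, in any pair as direct repeats with a spacer of 1, 2 or 5 bases, on both strands. Of 32851 windows 0.588% held such a repeat, and 0.0974% held one with a spacer of 5. Of 15 windows of 8 retinoic acid genes 1 held a repeat, that of Rarb (Crabp2 had no window in the table). The Rarb repeat lies 53 to 37 bases before the RefSeq start, in an exon that GENCODE annotates as UTR of another Rarb transcript, at chr14:16575513-16575529, and the gene is on the minus strand. The Cyp26a1 repeat is on the other strand than the gene, 32 to 16 bases before the start, at chr19:37697776-37697792, outside any annotated gene, and the gene is on the plus strand. Both are shown in the direction of the gene with 6 bases on each side, and the capitals mark the repeat:
Rarb: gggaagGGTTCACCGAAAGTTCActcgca
Cyp26a1: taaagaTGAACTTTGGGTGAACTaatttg
Both repeats have a spacer of 5. Dhrs3, Cyp26b1 and Aldh1a1, whose levels differed between groups, had no such repeat in their windows, which says only that these letters are not there. Of the 31 genes with a repeat of spacer 5 in a window, 11 had a row and 3 passed the filter. Of these 3, 1 (Prss27) rose and 1 (Blvrb) fell in KD against 3NC, beside 31.9% and 23.5% of all genes.

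**Figure D3:**
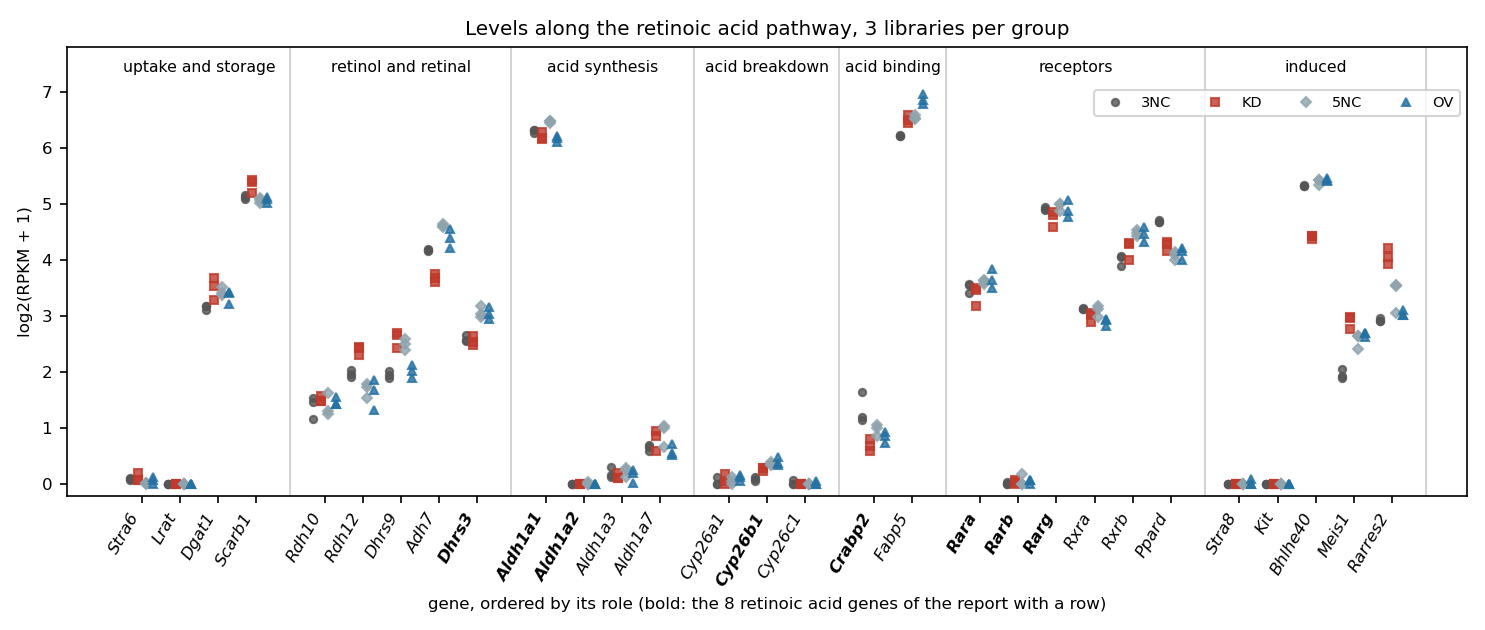
Levels of log2(RPKM + 1) (y axis) of genes along the pathway (x axis, ordered by role, bold for the 8 retinoic acid genes with a row), with 1 point per library and a marker and colour per group. Fabp5, Aldh1a1 and Scarb1 were among the highest, while Stra6, Lrat, Aldh1a2, the 3 Cyp26 genes, Rarb, Stra8 and Kit stay at or near 0.

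The other genes of the pathway were taken from lists of uptake and storage, retinol and retinal enzymes, other acid enzymes, other binding proteins and receptor partners, and coregulators and competing receptors. Of these 56 genes 52 had a row and 32 were tested. In KD against 3NC 10 rose and 6 fell, beside 31.9% and 23.5% of all genes tested (median log2 difference 0.03, against 0.04 over all genes tested). In OV against 5NC 1 rose and 7 fell, beside 8.07% and 13.9% of all genes (median -0.06, against -0.03 over all genes). In 5NC against 3NC 11 were higher and 5 lower, beside 31.0% and 25.6% of all genes (median 0.08, against 0.02 over all genes).

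At the entry of the pathway, Stra6, the retinol transporter, and Lrat, which esterifies retinol for storage, were at most at 0.15 and 0.01 RPKM. Both tested genes of the uptake list rose in KD against 3NC, where 31.9% of all genes tested rose. They were Dgat1, which can esterify retinol (log2 difference 0.35, limma adjusted p = 0.00354), and Scarb1, a lipoprotein and carotenoid receptor (0.22, limma adjusted p = 0.00538). Dgat1 was also higher in 5NC than in 3NC (0.28, limma adjusted p = 0.0142) and differed by 0.07 between KD and 5NC (limma adjusted p = 0.497).

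Of 9 tested genes for the interconversion of retinol and retinal, 2 rose and 3 fell in KD against 3NC, where 31.9% and 23.5% of all genes did. Rdh10, the main retinol dehydrogenase of the embryo, had means of 1.65 to 1.87 RPKM and did not pass in any comparison. Dhrs9, a retinol dehydrogenase, rose from a mean RPKM of 2.90 ± 0.172 to 5.07 ± 0.578 (SD, n = 3; KD against 3NC, log2 difference 0.64, limma adjusted p = 2.05e-05). In OV it fell from 4.64 ± 0.376 in 5NC to 3.04 ± 0.320 (log2 difference -0.48, limma adjusted p = 0.00288), and it was 0.53 higher in 5NC than in 3NC (limma adjusted p = 0.000107). Rdh12 rose by 0.43 in KD against 3NC (limma adjusted p = 0.00475) and was lower in 5NC than in 3NC (log2 difference -0.29, limma adjusted p = 0.0387). Adh7, an alcohol dehydrogenase that also oxidises retinol, fell in KD from 17.1 ± 0.130 to 11.8 ± 0.657 RPKM (log2 difference -0.50, limma adjusted p = 3.12e-05). Adh7 also fell in OV against 5NC (-0.23, limma adjusted p = 0.0349). It was 0.44 higher in 5NC than in 3NC (limma adjusted p = 0.0001), and its mean was 23.6 RPKM in 5NC and 20.1 in OV.

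Of 17 tested coregulators and competing receptors, 5 rose and 2 fell in KD against 3NC, beside 31.9% and 23.5% of all genes. In OV against 5NC 0 rose and 5 fell with limma, beside 8.07% and 13.9% of all genes. At an unadjusted p under 0.05, 1 was higher and 7 were lower, beside 14.0% and 23.1% of all genes. The coactivator Ncoa1 rose in KD (log2 difference 0.36, limma adjusted p = 0.000555) and fell in OV (-0.43, limma adjusted p = 0.00154). Ncoa3, of the same family, rose in KD (0.40, limma adjusted p = 0.00043) and differed by -0.08 in OV (limma adjusted p = 0.462). Nr2c1, an orphan receptor that binds similar direct repeats, rose in KD by 0.36 (limma adjusted p = 9.01e-05). It was 0.40 higher in 5NC than in 3NC as well (limma adjusted p = 3.35e-05) and differed by -0.04 between KD and 5NC (limma adjusted p = 0.58).

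**Figure D4:**
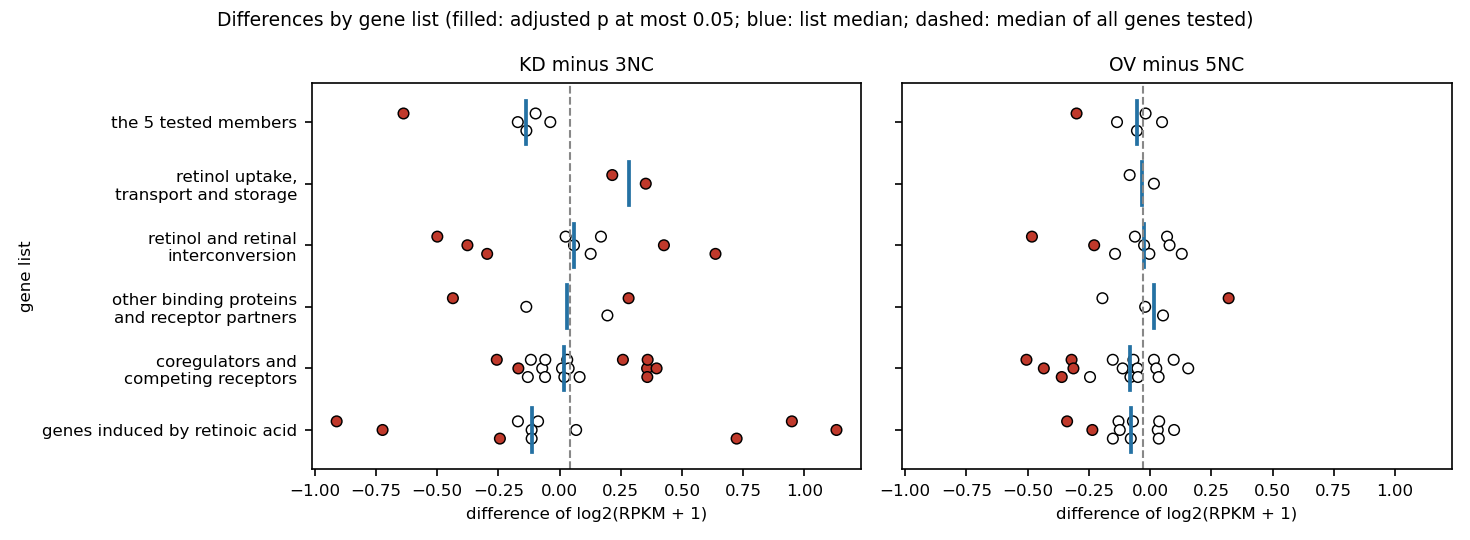
Differences of log2(RPKM + 1) (x axis) for the tested genes of each list (y axis) in KD against 3NC (left) and OV against 5NC (right). Each point is a gene, filled at an adjusted p of at most 0.05, blue bars are list medians and the dashed line is the median of all genes tested (0.04 left, -0.03 right). The induced genes spread from -0.91 to 1.13 on the left.

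Of 19 genes known to be induced by retinoic acid, all had a row and 11 were tested. Stra8, the marker of the retinoic acid response of germ cells, was at most at 0.07 RPKM, and Kit was listed at 0 in all 12 libraries, as was Hoxb1. In KD against 3NC 3 of the 11 rose and 3 fell, beside 31.9% and 23.5% of all genes, with a median log2 difference of -0.11 against 0.04 over all genes. Rarres2, which encodes the chemoattractant chemerin, rose in KD from 6.67 ± 0.159 to 15.8 ± 1.61 RPKM (SD, n = 3; log2 difference 1.13, limma adjusted p = 5.17e-07) and was the 1 gene of the list past the study's threshold on the log2(RPKM + 1) scale. With a pseudocount of 0.1 there were 2, Rarres2 and Meis1. Meis1, a homeobox gene, rose from 2.89 ± 0.238 to 6.51 ± 0.576 RPKM (0.95, limma adjusted p = 2.07e-07). Bhlhe40, a transcriptional repressor, fell from 39.1 ± 0.200 to 20.3 ± 0.572 RPKM (-0.91, limma adjusted p = 5.56e-10), and at 41.2 ± 1.59 in 5NC and 42.2 ± 0.703 in OV the libraries outside KD lay close together. Meis1 and Rarres2 were also higher in 5NC than in 3NC (0.62 and 0.45, limma adjusted p = 1.47e-05 and 0.00246). In OV against 5NC 0 of the 11 rose and 2 fell with limma (8.07% and 13.9% of all genes), and at an unadjusted p under 0.05 0 were higher and 3 lower (14.0% and 23.1% of all genes).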

How the data were processed

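RNA of 12 C18-4 libraries, 3 in each of the groups 3NC, KD, 5NC and OV, was taken as grouped in the sample labels. The authors enriched mRNA with oligo(dT) beads (the labels name total RNA), mapped reads to reference genes with SOAPaligner 2.20 and deposited RPKM values, rounded to 0.01. The genome build and gene set are not given in the sources used here, and RPKM keeps no read numbers, so depth in reads is unknown. Reads of paralogues depend on the mapping.

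The deposited RPKM were put on the log2(RPKM + 1) scale, and genes that reached 1 RPKM in 3 or more libraries (11435 of 17576) were fitted with limma 3.58.1 in R 4.3.3, in 1 model of all 12 libraries with eBayes and an intensity trend. Benjamini-Hochberg adjustment ran over all genes tested, and single genes were compared by exact permutation tests. The authors' DEGseq test needs read numbers and was not run. The fit was tested on simulated data. Promoter windows are from RefSeq on GRCm38.p6 and exons from GENCODE on GRCm38. Python 3.11.15 and matplotlib 3.10.9 were used.

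The retinoic acid genes and the lists were chosen with earlier results of these data known. Named besides them are fixed genes of the pathway (such as Rxra, Fabp5, Rdh10, Stra8 and Kit), at most 3 called genes of each pathway list with the largest difference of KD against 3NC, and the 3 genes most like Crabp2. Of the genes that this rule names, 1 is not reported here. Hoxb1, Purb, Prss27 and Blvrb were named after their values were seen. Single genes of the marker lists (such as Col1a1, Wt1, Acta2, Pdgfra, Cnn1 and Tagln) were also named outside this rule. The supplementary methods head the C18-4 work with lncRNA8276 and the paper's data statement names another series, and the labels were followed. Alternatives were another pseudocount, no filter, quantile normalization, median centring, no trend, a replicate block, only the libraries compared, the study's threshold, each library left out, and, after the data were seen, a pseudocount of 0.1 without the filter and the study's threshold with a pseudocount of 0.1, with and without the filter.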

Additional observations from a re-analysis of the deposited data

Results flagged for a closer look

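The effect of the knockdown differed from that of the overexpression for Aldh1a1 and for Crabp2, by the interaction term of the limma fit to 12 libraries. For Aldh1a1 the difference of effects on the log2(RPKM + 1) scale was 0.2023 (SE 0.064, limma adjusted p = 0.0159), and the call was lost with median centring (limma adjusted p = 0.0949). For Crabp2 it was -0.5022 (SE 0.17, limma adjusted p = 0.0231), and Crabp2 lay near the limit of the filter on low values. This call was lost in 6 of 19 alternatives, with limma adjusted p-values up to 0.0592 (without a filter). The KD and OV effects were each taken against their own control, 3NC and 5NC, which differed from each other for both genes.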

How the results depend on the processing

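Of 375 values of the 5 tested genes under the alternatives, 332 kept their direction and side of the threshold, 22 lost a call, 9 gained one and 12 changed sign. None of those 12 was called as reported or under the alternative. Without a filter all 8 genes with a row were fitted, and under the other alternatives the 5 tested ones. The number of these genes called in KD against 3NC was 1, and 1 to 2 with single libraries left out. It was 2 without a filter, with quantile normalization, with median centring and with a pseudocount of 0.1 without a filter. Of the 11435 genes tested 6335 were called there, 6414 with quantile normalization and 6301 with median centring. In KD against 5NC the number of these genes called was 4, beside 7477 of the 11435 (7532 with quantile normalization). It was 5 with a pseudocount of 0.1, with no intensity trend and with only the libraries compared, and 3 with quantile normalization. It was 2 without a filter and with a pseudocount of 0.1 without a filter. On leaving out libraries it was 2 to 5 (2 without KD replicate 3, 5NC replicate 1 or 5NC replicate 3). For the difference of the knockdown and overexpression effects it was 2, beside 5938 of the 11435 (5761 with median centring). It was 1 without a filter and with median centring, and 1 to 2 on leaving out libraries. With so many genes called, these changes are not a result about the retinoic acid genes. The study's threshold gave 0 in all 5 comparisons on the log2(RPKM + 1) scale. With a pseudocount of 0.1 it gave 1 in KD against 3NC (Crabp2, beside 3.17% of all genes) and 0 in the other 4. Without a filter at that pseudocount it gave 1 in 5NC against 3NC (Cyp26b1, beside 2.98% of all genes) and 0 in the other 4, KD against 3NC included. Without a filter the p-values were adjusted over more genes, and Cyp26b1 was called in KD against 3NC and in 5NC against 3NC, and with a pseudocount of 0.1 also for the difference of effects. For the other changes the cause was not tested. In 5NC against 3NC the number was 3, beside 6466 of the 11435 genes tested, and 2 to 3 on leaving out libraries. It was also 3 without a filter, where Cyp26b1 was called in place of Crabp2.

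The values that changed sign were Dhrs3 in OV against 5NC (0.0565 with quantile normalization, 0.0219 with median centring, -0.0771 to 0.0372 on leaving out libraries), Rarg in 5NC against 3NC (-0.0173 with quantile normalization and -0.0007 with median centring), and, on leaving out libraries, Rara (-0.0365 to 0.127) and Rarg (-0.14 to 0.0161) in OV against 5NC and Dhrs3 in the difference of effects (-0.075 to 0.0392). The replicate numbers did not pair the libraries (correlations of deviations from group means from -0.178 to 0.176). With a replicate block the calls numbered 1 in KD against 3NC, 1 in OV against 5NC, 3 in 5NC against 3NC, 4 in KD against 5NC and 2 for the difference of effects, as without the replicate block.

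The values rest on 3 libraries per group, and no counting error was estimated for RPKM near 0 (Cyp26b1, Rarb and Aldh1a2).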
